A study of Mus musculus with 6 samples.

Results

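The respiratory chain was examined as 100 protein-coding genes, of 35865 genes with a matched transcript, in macrophages sorted from the mouse heart. The members were taken by gene symbol alone: the mitochondrially encoded subunits and the nuclear subunits of complexes I to V, with cytochrome c. Of these, 13 are encoded by the mitochondrial genome and 87 by nuclear chromosomes. By complex they divide into 42 genes of complex I, 4 of complex II, 10 of complex III, 23 of complex IV, 20 of complex V (ATP synthase) and 1 for cytochrome c. Ndufa4 and Ndufa4l2 were counted with complex IV, where the Ndufa4 protein is now placed.

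RNA was sequenced from 6 libraries, 3 labelled Tet2 KO (Tet2-/-) and 3 labelled Tet2 WT (Tet2+/+), all of strain C57BL/6J. Both genotypes came from donor hematopoietic progenitor cells, and the series title places them in nonconditioned mice with clonal hematopoiesis. Tet2 encodes an enzyme that oxidises 5-methylcytosine in DNA. The age and genotype of the recipients, the sort gate, the deleted part of Tet2 and whether each library is a separate animal were not given in the sources used here, so p-values measure the spread between libraries.

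The chain passes electrons from NADH (complex I) and succinate (complex II) through ubiquinone to complex III, cytochrome c and complex IV, which reduces oxygen. Complexes I, III and IV pump protons, and complex V uses the gradient to make ATP. Complexes I, III, IV and V mix subunits of both genomes, whereas complex II is wholly nuclear encoded. Mitochondrial mRNAs are cut from long polycistronic transcripts of the mitochondrial genome, while each nuclear subunit has its own promoter. Macrophages shift between oxidative phosphorylation and glycolysis with their activation state.

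Library totals ran from 37349505 to 55771087 estimated counts. Total Tet2 TPM (transcript abundance scaled for transcript length and library total) was 33.7, 27.7 and 29.1 in Tet2 KO 1 to 3 and 23.3, 26.1 and 24.6 in Tet2 WT 1 to 3, so the sum over the gene was not lower in the libraries labelled Tet2 KO. Without the deleted part this does not test the knockout. The 21 macrophage markers summed to between 32131 and 61407 TPM and included Adgre1, Cd68 and Csf1r. Fibroblast markers summed to between 1593 and 2936 TPM in Tet2 KO and between 11904 and 22744 TPM in Tet2 WT libraries, and 18 of 18 were called lower in Tet2 KO. Tet2 KO 1 stood apart. It had the fewest counts and the fewest transcripts above 0 (63076, against 67569 to 73467 in the others). It also had the lowest mitochondrially encoded level, and values without it are given for the mitochondrially encoded genes and for other results it moved.

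Reads of some mitochondrially encoded genes are divided by the quantifier between those genes and near-identical nuclear pseudogenes, and the amount bears on every mt-Co1 value. Gm29216, an unprocessed pseudogene on the minus strand of chr1:24615706-24616197 (GRCm38), is 492 bases long and aligns to bases 1054 to 1545 of mt-Co1. The first 60 aligned bases are shown 5′ to 3′ because they hold every difference between them. Capitals mark the differing bases. The mt-Co1 stretch is chrM:6381-6440 on the plus strand, and the Gm29216 stretch is chr1:24616138-24616197 on the minus strand.
mt-Co1: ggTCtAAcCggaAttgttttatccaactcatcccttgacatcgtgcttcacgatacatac
Gm29216: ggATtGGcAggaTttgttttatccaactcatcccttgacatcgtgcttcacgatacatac
Counted from the first base of mt-Co1, with the mt-Co1 base first, the 6 differences are T1056A, C1057T, A1059G, A1060G, C1062A and A1066T. The remaining 479 bases are identical, so a fragment within them cannot be placed by sequence. Gm29216 was listed at between 14893 and 31527 TPM, above mt-Co1 itself in every library (6573 to 18162 TPM), and took 27.7 to 33.9% of the counts assigned to both genes. Gm28437, contained whole within mt-Co3, was listed at 265 to 3076 TPM. Each other pseudogene copy of a mitochondrially encoded gene was listed at no more than 4.88 TPM in any library.

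A second kind of shared sequence lies inside the mitochondrial genome, where the end of mt-Atp8 and the start of mt-Atp6 are read in different frames. The 43 overlapping bases, chrM:7927-7969 on the plus strand, are shown because both genes are members, with the start codon of mt-Atp6 in capitals.
mt-Atp8 and mt-Atp6 overlap: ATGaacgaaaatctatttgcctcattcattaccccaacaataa
mt-Nd4l and mt-Nd4 overlap by 7 bases in the same way. Each pair is carried on 1 mRNA in mitochondria. A read within the 43-base overlap fits both mt-Atp8 and mt-Atp6, so their separate values can share fragments. The 7-base overlap is shorter than the sequence words used to find shared sequence, and none was found between mt-Nd4l and mt-Nd4.

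Mitochondrially encoded transcripts varied more between the Tet2 KO libraries than between the genotypes. Their summed level was 5.48% of all TPM in Tet2 KO 1, 14.7% in Tet2 KO 2 and 10.8% in Tet2 KO 3, and 17.2%, 14.3% and 13.1% in Tet2 WT 1 to 3. The groups overlapped, since Tet2 KO 2 lay above both Tet2 WT 2 and Tet2 WT 3. The means were 10.3% ± 4.61 (SD, n = 3) and 14.9% ± 2.08 (SD, n = 3). On the log2 scale the difference in summed TPM was −0.63, and it was −0.23 without Tet2 KO 1 and −0.94 without Tet2 KO 2. As a percent of macrophage marker TPM the groups did not overlap, at 89.3, 300 and 197 in Tet2 KO 1 to 3 and 535, 338 and 343 in Tet2 WT 1 to 3. Those markers themselves differed between genotypes.

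**Figure D1:**
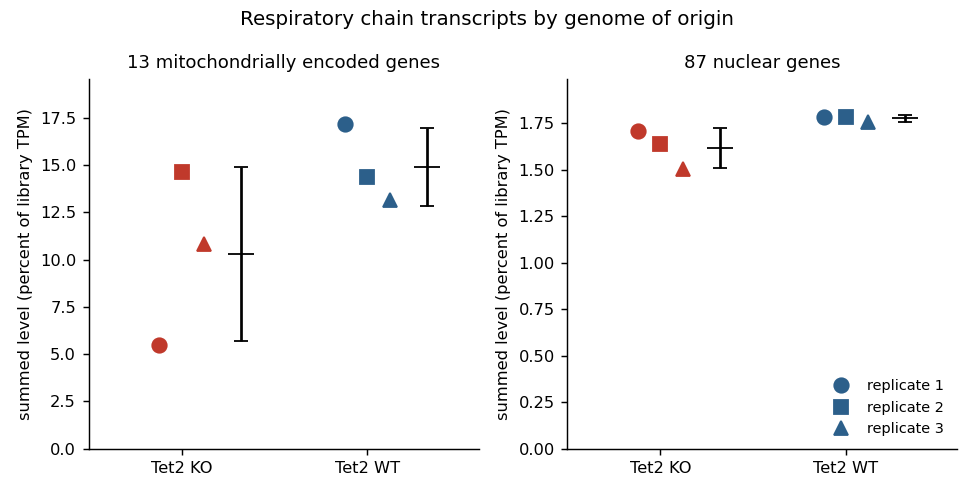
Summed level of the mitochondrially encoded genes (left) and nuclear genes (right) of the respiratory chain, as a percent of library TPM, with 1 point per library and the mean ± SD (n = 3) in black. Both axes start at 0. Tet2 KO 1 is lowest at left with 5.48%, and the nuclear sums lie between 1.502% and 1.79%.

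Nuclear transcripts of the chain held 1.71%, 1.64% and 1.502% of TPM in Tet2 KO 1 to 3, against 1.79%, 1.79% and 1.76% in Tet2 WT 1 to 3. These sums did not overlap, and the Tet2 KO mean was 0.91 of the Tet2 WT mean. As a share of estimated counts, with no length term, the nuclear sums overlapped, and the log2 difference was −0.085, against −0.14 in TPM. Without Tet2 KO 3 the difference in TPM was −0.086. TPM is a share of each library, and the median log2 difference of all tested genes was −0.09 with a pseudocount of 1 and −0.15 with a pseudocount of 0.1, and the nuclear difference lay between these. In the count model, which scales libraries by TMM (trimmed mean of M-values), the median fold change of the tested nuclear members was 0.02 on the log2 scale, and that of all tested genes was 0.00. By complex, the nuclear TPM sums of complexes IV and V did not overlap between genotypes, and as shares of estimated counts complex V alone did not overlap. Complex IV held 0.401% ± 0.0351 of TPM in Tet2 KO and 0.458% ± 0.0111 in Tet2 WT libraries (SD, n = 3), and complex V held 0.407% ± 0.0225 and 0.449% ± 0.00108 (SD, n = 3). Complex I held 0.54% ± 0.0434 and 0.594% ± 0.0126, complex II 0.0635% ± 0.00873 and 0.0568% ± 0.00231, and complex III 0.202% ± 0.0181 and 0.214% ± 0.00123 (SD, n = 3), each with overlap. Rescaled within nuclear protein-coding genes, complexes I and III did not overlap either, and the log2 difference of complex III was −0.18 in place of −0.086. Single libraries moved these sums. The log2 difference of complex I was −0.14, and −0.09 without Tet2 KO 3. That of complex III was −0.15 without Tet2 KO 1 and −0.027 without Tet2 KO 3. That of complex II was 0.15, with 0.058 without Tet2 KO 1 and 0.26 without Tet2 KO 2. The ratio of mitochondrial to nuclear TPM was 3.20, 8.95 and 7.20 in Tet2 KO 1 to 3, and 9.62, 8.03 and 7.48 in Tet2 WT 1 to 3.

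Across genes, 1 of the 97 tested members passed edgeR's quasi-likelihood test at a Benjamini-Hochberg adjusted p under 0.05, Ndufa4l2, which was lower in Tet2 KO. The same fit called 16.2% of the 16386 genes tested, 6.11% higher and 10.1% lower. No member was called higher in that fit. At an unadjusted p under 0.05, 5 members were higher and 3 lower, where 28.9% of all tested genes lay under that value in either direction. DESeq2 called 1 member higher (Sdhd) and 2 lower (Ndufa4l2 and Ndufb2), and limma voom called Ndufa4l2 alone. The members not tested were Cox8c, listed at 0 in every library, Cox7b2, and a second gene model of Atp5o.

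Under TMM scaling, the 95% intervals show how closely the data bound the members that were not called. They hold no uncertainty of the scaling itself. Scaled to the macrophage markers, the median log2 fold change of the nuclear members was −0.68, outside 1.5-fold. With TMM, for 67 of the 84 tested nuclear members the whole interval lay within 1.5-fold of no change, and for 80 it lay within 2-fold. Of all 16386 tested genes, 4105 had intervals within 1.5-fold and 8622 within 2-fold. Intervals were wider for the mitochondrially encoded genes, where 0 of 13 intervals lay within 1.5-fold and 3 lay within 2-fold. The quartiles of the nuclear fold changes were −0.09 and 0.14 on the log2 scale, against −0.40 and 0.29 for all tested genes. The median SE was 0.13 for the nuclear members and 0.23 for all tested genes. These comparisons were not matched for expression level.

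**Figure D2:**
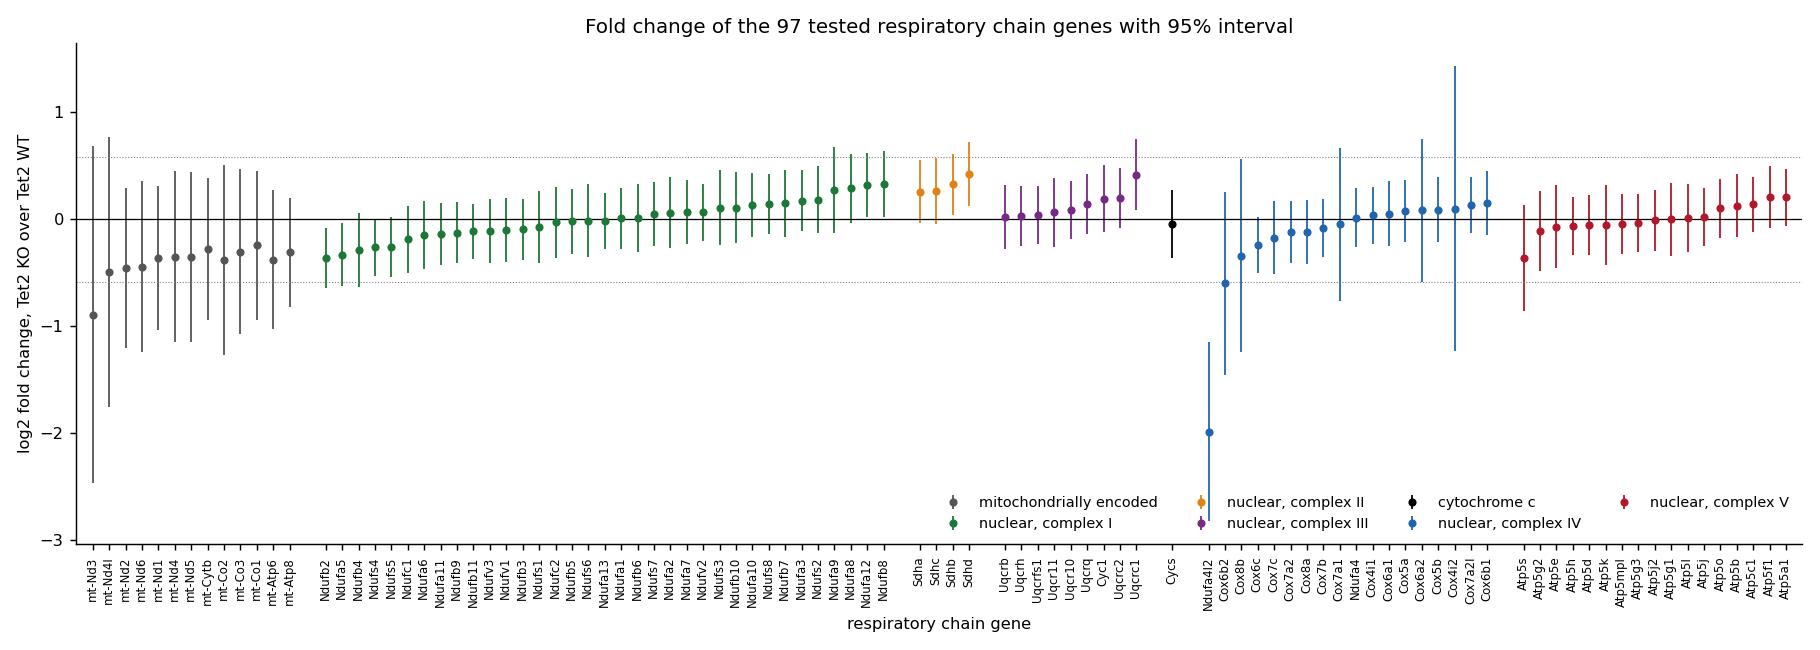
Log2 fold change (Tet2 KO over Tet2 WT) with its 95% interval for the 97 tested respiratory chain genes, grouped by genome and complex and ordered by fold change within each group. Dotted lines mark 1.5-fold. Ndufa4l2 is lowest at −1.99, and the 13 mitochondrially encoded genes lie below 0 with wide intervals.

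Ndufa4l2, a paralog of the complex IV subunit Ndufa4 that is induced by the hypoxia factor HIF-1 and also marks pericytes, fell. It lies at chr10:127514967-127517154 on the plus strand. Its level was 7.32, 4.89 and 2.66 TPM in Tet2 KO 1 to 3, and 28.9, 16.7 and 23.7 TPM in Tet2 WT 1 to 3. Every Tet2 KO library lay below every Tet2 WT library. The log2 fold change of Ndufa4l2 was −1.99 ± 0.37 (SE, edgeR adjusted p = 0.00644), and the gene was called in all 6 fits that left out 1 library, with adjusted p from 0.00596 to 0.0358.

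The paralog Ndufa4 was 329, 360 and 288 TPM in Tet2 KO libraries and 363, 354 and 378 TPM in Tet2 WT libraries, with a log2 fold change of 0.02. Ndufa4l2 therefore made up 2.18%, 1.34% and 0.92% of the pair's TPM in Tet2 KO 1 to 3, and 7.38%, 4.51% and 5.90% in Tet2 WT 1 to 3. Some markers of other cell types were also lower in Tet2 KO. The 11 pericyte and smooth muscle markers summed to between 21.8 and 39.5 TPM in Tet2 KO and between 52.2 and 87.7 TPM in Tet2 WT libraries. None stayed under 0.5 TPM in every library. Of these, 2 of 11 were called lower, Pdgfrb among them, where 10.1% of all tested genes were called lower, and the rest were not called. Pdgfrb had the largest difference in TPM of the 11. It was 4.73, 2.50 and 2.33 TPM in Tet2 KO 1 to 3 and 31.5, 18.35 and 30.7 TPM in Tet2 WT 1 to 3. Acta2 and Tagln, the next most abundant in Tet2 WT, overlapped between genotypes. Acta2 was 4.32 to 13.8 TPM in Tet2 KO and 10.02 to 19.5 TPM in Tet2 WT libraries. The median log2 fold change of the 11 was −0.77. The pericyte marker Rgs5 had a log2 fold change of 0.06. The fibroblast markers fell as given above. The part of these cells in the Ndufa4l2 value was not tested, and in bulk RNA fewer cells of a type and less RNA per cell cannot be told apart.

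Complex I, the NADH dehydrogenase, has 7 mitochondrially encoded core subunits and 35 nuclear ones here. None of the 7 mitochondrial subunits was called. mt-Nd3 had the widest spread of the mitochondrially encoded genes, at 679, 4965 and 1898 TPM in Tet2 KO 1 to 3 against 6193, 5656 and 4203 TPM in Tet2 WT 1 to 3. Tet2 KO 1 thus held 12.7% of the Tet2 WT mean, and Tet2 KO 2 lay within the Tet2 WT range. The log2 fold change of mt-Nd3 was −0.89 ± 0.66 (SE, edgeR adjusted p = 0.449). mt-Nd4l was next, at 818, 4086 and 1920 TPM against 4297, 3619 and 3020 TPM, with a log2 fold change of −0.49 ± 0.53 (SE, edgeR adjusted p = 0.622). Without Tet2 KO 1 these fold changes were −0.43 for mt-Nd3 (edgeR adjusted p = 0.597) and −0.078 for mt-Nd4l (edgeR adjusted p = 0.932). Without Tet2 KO 2, mt-Nd3 (−1.91, edgeR adjusted p = 0.0188) and mt-Nd4l (−1.27, edgeR adjusted p = 0.0391) were called lower.

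The other mitochondrial subunits of complex I were also lowest in Tet2 KO 1, with less spread. mt-Nd1 was the most abundant of them, with 4498, 10551.5 and 7683 TPM in Tet2 KO libraries and 12891, 10604 and 9336 TPM in Tet2 WT libraries. Log2 fold changes of mt-Nd1, mt-Nd2, mt-Nd4, mt-Nd5 and mt-Nd6 were −0.36, −0.45, −0.35, −0.35 and −0.44. When Tet2 KO 1 was left out they were −0.080, −0.15, −0.014, −0.014 and −0.11. mt-Nd6 is the member encoded on the opposite strand from the rest, and its values, 988, 2881 and 1978 TPM against 3313, 3148 and 2584 TPM, were again lowest in Tet2 KO 1.

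Among the 35 nuclear subunits of complex I, 17 fold changes were positive and 18 negative, and none was called. Ndufs1, which carries iron-sulfur clusters, was 48.4, 35.5 and 46.7 TPM in Tet2 KO libraries and 54.8, 50.1 and 50.6 TPM in Tet2 WT libraries, with a log2 fold change of −0.07 ± 0.15 (SE). Ndufv1, which binds NADH and flavin, had a log2 fold change of −0.10 ± 0.13 (SE). The most abundant were Ndufa3, between 382 and 449 TPM over the 6 libraries, and Ndufb8, between 351 and 486 TPM. The subunits at the ends of the range were singled out after their values were seen. Ndufb2 had the lowest fold change, −0.36 ± 0.12 (SE, edgeR adjusted p = 0.0824), from 110, 122 and 94.2 TPM against 165, 146 and 153 TPM. Its groups did not overlap in TPM, which held for 32.4% of all tested genes. Among the 97 tested members, TPM groups did not overlap with Tet2 KO lower in 29, where 24.2% of all tested genes did so, and with Tet2 KO higher in 1, where 8.14% did so. Ndufa5, Ndufs4 and Ndufs5 had log2 fold changes of −0.33, −0.26 and −0.26, while Ndufb8 and Ndufa12 had 0.33 and 0.32.

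Complex II, succinate dehydrogenase, links the chain to the citric acid cycle and has no mitochondrially encoded subunit. Its 4 genes had positive log2 fold changes, and none passed edgeR's test, with 2 at an unadjusted p under 0.05. Sdha, the flavoprotein, was 201, 154 and 185 TPM in Tet2 KO libraries and 167, 169 and 181 TPM in Tet2 WT libraries, with a log2 fold change of 0.26 ± 0.13 (SE). Sdhb, the iron-sulfur subunit, was 249, 189 and 214 TPM against 201, 189 and 190 TPM, with a log2 fold change of 0.33 ± 0.13 (SE). The membrane anchors Sdhc and Sdhd, singled out after their values were seen, had 0.27 and 0.43. Without Tet2 KO 1 the fold changes of Sdha, Sdhb and Sdhc were 0.17, 0.24 and 0.17.

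Sdhd came closest to the threshold of the genes not called, with an edgeR adjusted p of 0.0571. Its level was 181, 134 and 163 TPM in Tet2 KO libraries and 121, 133 and 144 TPM in Tet2 WT libraries. Of the 6 fits that left out 1 library, 1 called it, that without Tet2 KO 2, the lowest of the Tet2 KO libraries (edgeR adjusted p = 0.0213). The other fits gave adjusted p up to 0.177, and without Tet2 KO 1, the highest library, the fold change was 0.34 (edgeR adjusted p = 0.149). Under DESeq2 it was 0.0306. The direction of complex II turned when libraries were scaled to the macrophage markers, where the 4 genes had log2 values from −0.44 to −0.27.

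Complex III has 1 mitochondrially encoded subunit, mt-Cytb, which was 4945, 11372 and 8997 TPM in Tet2 KO libraries and 13420, 11078 and 10008 TPM in Tet2 WT libraries. Its log2 fold change was −0.28 ± 0.29 (SE, edgeR adjusted p = 0.604) and crossed 0 without Tet2 KO 1, at 0.0045. The 9 nuclear subunits had positive log2 fold changes from 0.02 to 0.42, and none was called. Uqcrc1, a core protein of the complex, had the highest, 0.42 ± 0.15 (SE, edgeR adjusted p = 0.0897), from 102, 69.7 and 79.8 TPM against 67.6, 65.7 and 78.6 TPM. The groups overlapped in TPM, and Tet2 KO 1 was the highest library. Without Tet2 KO 1 the fold change of Uqcrc1 was 0.26, with an edgeR adjusted p of 0.232. Of the 6 fits that left out 1 library, 1 called the gene, that without Tet2 KO 2, with an edgeR adjusted p of 0.0407. Cyc1, the cytochrome c1 haem protein, had 0.19, and Uqcrfs1, the Rieske iron-sulfur protein, had 0.04. Uqcrb and Uqcr11, the most abundant, lay between 446 and 611 TPM and between 384 and 514 TPM. Scaled to the macrophage markers, the nuclear subunits named here were all negative, from −0.67 to −0.28. Cycs, the mobile carrier between complexes III and IV, was between 25.3 and 36.1 TPM, with a log2 fold change of −0.04 ± 0.14 (SE). Of the short sequence words of Cycs, 26.24% also occur in Gm10053, which was listed at between 80.75 and 102.9 TPM. The division of reads between Cycs and Gm10053 was not tested, so the level of Cycs is uncertain.

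Complex IV, cytochrome c oxidase, is built on mt-Co1, mt-Co2 and mt-Co3, and mt-Co3 had the highest TPM of all members. mt-Co3 was 12794, 35597 and 27573 TPM in Tet2 KO 1 to 3, and 41518, 32903 and 31615 TPM in Tet2 WT 1 to 3. Tet2 KO 2 lay between Tet2 WT 1 and Tet2 WT 2, and Tet2 KO 1 was lowest. Log2 fold changes of mt-Co1, mt-Co2 and mt-Co3 were −0.24, −0.38 and −0.30, none called. With Tet2 KO 1 left out they were 0.045, −0.017 and 0.026. With the TPM of the pseudogenes added to that of the 13 mitochondrial genes, an alternative chosen after seeing the data, the summed log2 difference was −0.58. With pseudogene counts added to the mitochondrial genes in the edgeR fit, again none of the 13 was called.

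Several nuclear subunits of complex IV come as pairs, 1 member in most tissues and 1 in heart and skeletal muscle or another restricted setting. The common members were abundant: Cox4i1, Cox6a1, Cox6b1 and Cox8a lay between 396 and 611 TPM, and Cox7a2 between 189 and 261 TPM. The muscle members were minor but present. Cox6a2 made up 1.999 to 2.77% of its pair, Cox7a1 9.75 to 14.7% and Cox8b 1.90 to 3.94%, and the genotypes overlapped in each. Cox4i2, the lung and hypoxia isoform, made up 0.144 to 0.348% of its pair.

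Cox8b was 9.01, 20.7 and 13.7 TPM in Tet2 KO 1 to 3 and 24.3, 21.2 and 16.96 TPM in Tet2 WT 1 to 3, so Tet2 KO 1 was lowest here too. The 20 cardiomyocyte markers summed to 240.5, 365.9 and 270.1 TPM in Tet2 KO 1 to 3 and to 347.2, 352.8 and 340.6 TPM in Tet2 WT 1 to 3, with 0 of 20 called by edgeR and none under 0.5 TPM in every library. Within the Tet2 KO libraries these sums took the same order as the mitochondrially encoded sum, as did the summed endothelial markers (175, 243 and 209 TPM) and erythroid markers (1017, 2049 and 1087 TPM). Macrophage (61407, 48848 and 54739 TPM), fibroblast (2936, 1593 and 2820 TPM) and B cell markers (115, 85.2 and 108 TPM) ran in the opposite order. Pericyte and smooth muscle, T and NK cell, and neutrophil markers took neither order. Within the Tet2 WT libraries the cardiomyocyte order differed, with these markers highest in Tet2 WT 2 and the mitochondrially encoded sum highest in Tet2 WT 1. Endothelial markers were highest in Tet2 WT 3 (354 TPM), while erythroid markers (815, 244 and 108 TPM) kept the order of the mitochondrially encoded sum. The part of RNA from other cells in that sum was not tested. Cox6b2, known from testis, was the other pair without overlap, at 1.08 to 1.21% of its pair in Tet2 KO and 1.55 to 2.24% in Tet2 WT libraries. Its log2 fold change was −0.60 ± 0.38 (SE, edgeR adjusted p = 0.356).

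**Figure D3:**
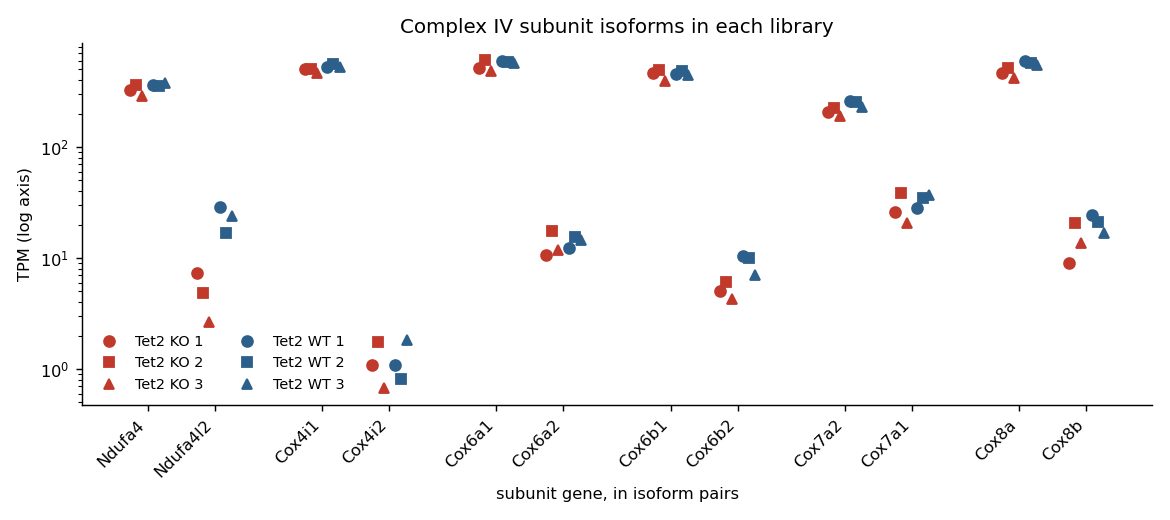
TPM of complex IV subunit isoforms in each library on a log axis, with 1 point per library and the common member of each pair at left. Ndufa4l2 separates by genotype (2.66 to 7.32 against 16.7 to 28.9 TPM), whereas the muscle isoforms Cox6a2, Cox7a1 and Cox8b overlap.

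Complex V, the ATP synthase, takes 2 membrane subunits from the mitochondrial genome. mt-Atp8 had the narrowest spread of the 13, at 3634, 6469 and 6444 TPM in Tet2 KO libraries and 7975, 7825 and 7301 TPM in Tet2 WT libraries. It was the one mitochondrially encoded gene whose TPM groups did not overlap. TPM groups did not overlap with Tet2 KO lower in 24.2% of all tested genes. In counts under TMM scaling the mt-Atp8 groups did overlap, as Tet2 KO 2 lay above Tet2 WT 3. The log2 fold change of mt-Atp8 was −0.31 ± 0.23 (SE, edgeR adjusted p = 0.431). mt-Atp6 had −0.38 ± 0.29 (SE, edgeR adjusted p = 0.450). Leaving out Tet2 KO 1 gave −0.058 for mt-Atp8 and −0.095 for mt-Atp6. Scaled to the macrophage markers, both were called lower, mt-Atp8 at −1.001 (edgeR adjusted p = 0.0106) and mt-Atp6 at −1.08 (edgeR adjusted p = 0.0488), on a scale where 43.0% of all tested genes were called lower.

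No nuclear gene of complex V was called by edgeR, DESeq2 or limma voom, and none lay under an unadjusted p of 0.05 in edgeR. The catalytic subunits Atp5a1 and Atp5b had log2 fold changes of 0.21 ± 0.12 (SE) and 0.13 ± 0.13 (SE). Atp5b had the highest TPM of the nuclear members, at 601, 512 and 580 TPM in Tet2 KO libraries and 590, 563 and 657 TPM in Tet2 WT libraries. The c subunit of the rotor ring is made from 3 genes that encode the same mature protein. Atp5g1, Atp5g2 and Atp5g3 held 38.3%, 9.76% and 51.9% of their summed TPM on average in Tet2 KO, and 37.65%, 10.35% and 52.0% in Tet2 WT libraries. Protein was not measured. Of the short sequence words of Atp5g2, 37.48% also occur in the pseudogene Gm10175, listed at between 82.31 and 129.6 TPM. The division of reads between Atp5g2 and Gm10175 was not tested, so the share of Atp5g2 is uncertain.

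**Figure D4:**
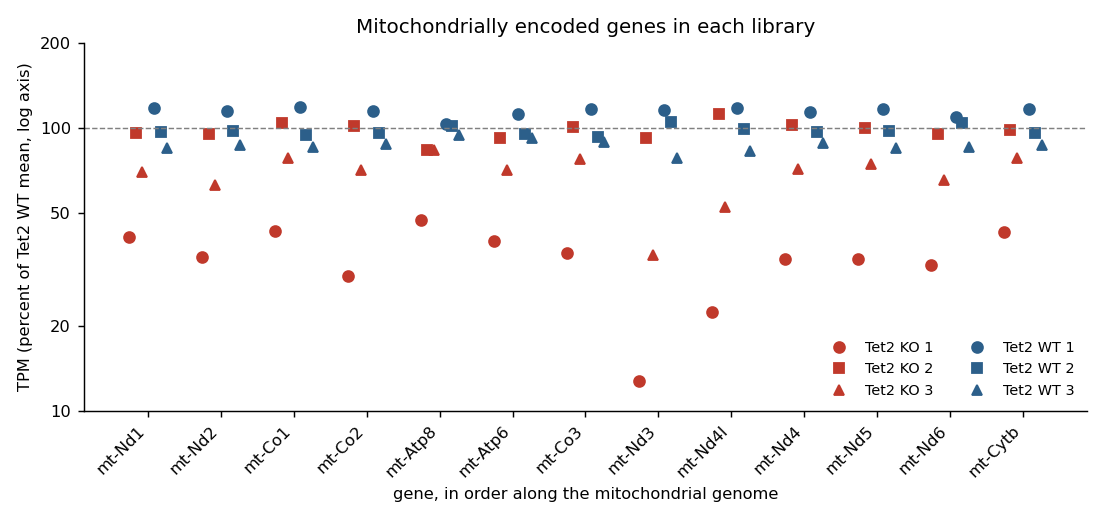
TPM of the 13 mitochondrially encoded genes in each library as a percent of the Tet2 WT mean (log axis), in order along the mitochondrial genome. Tet2 KO 1 is lowest for every gene, from 12.7% (mt-Nd3) to 47.2% (mt-Atp8), while Tet2 KO 2 lies near the Tet2 WT libraries.

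All 13 mitochondrially encoded genes had negative log2 fold changes, from −0.89 to −0.24, with a median of −0.36. None was called by edgeR, DESeq2 or limma voom, and none lay under an unadjusted p of 0.05 in edgeR. They are not independent, since they are cut from shared precursors and share the same 6 libraries. Without Tet2 KO 1 the median was −0.06, and without Tet2 KO 2 it was −0.73.

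The nuclear members were also examined for properties that the symbol rule did not use. Protein-coding transcripts carried 88.7% ± 0.181 (SD, n = 3) of nuclear member TPM in Tet2 KO and 88.8% ± 0.468 (SD, n = 3) in Tet2 WT libraries. Retained-intron transcripts carried 4.14% and 3.98%. Across the 84 tested nuclear members, which share the same libraries, fold change rose with effective transcript length (Spearman rho 0.39), whereas over all 16386 tested genes rho was −0.15. With mean TPM the rho across members was 0.09.

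Genes that assemble, express and feed the chain were followed through lists of 235 genes, of which 232 were tested. edgeR called 5 higher and 3 lower, against 6.11% and 10.1% of all tested genes, and the median log2 fold change was 0.06. Of 17 complex I assembly factors, Foxred1 (0.89 ± 0.20 SE, edgeR adjusted p = 0.0152) and Dmac2 (0.87 ± 0.23 SE, edgeR adjusted p = 0.0272) were higher in Tet2 KO. Foxred1 was 25.4, 16.96 and 19.6 TPM in Tet2 KO libraries and 9.70, 13.5 and 14.04 TPM in Tet2 WT libraries, with no overlap. TPM groups did not overlap with Tet2 KO higher in 8.14% of all tested genes. Dmac2 overlapped, at 16.2, 14.1 and 17.1 TPM in Tet2 KO libraries and 6.77, 14.9 and 10.5 TPM in Tet2 WT libraries. Of 78 mitochondrial ribosomal protein genes, 1 was called, Mrpl37, at 0.52. None of the 31 genes for mitochondrial DNA replication and expression was called by edgeR, with 3 under an unadjusted p of 0.05.

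The carriers that exchange the product of complex V with the cytosol moved in both directions under TMM scaling, whereas both were negative when scaled to the macrophage markers. Slc25a5, the ADP/ATP carrier of most cell types, rose by 0.60 ± 0.14 (SE, edgeR adjusted p = 0.0146), from 366, 409 and 366 TPM in Tet2 WT to 588, 460 and 503 TPM in Tet2 KO libraries. Slc25a4, the carrier that predominates in heart and muscle, fell by 0.49 on the log2 scale (edgeR adjusted p = 0.0345), from 153, 118 and 134 TPM to 94.5, 77.8 and 87.3 TPM. Neither gene overlapped between genotypes in TPM, as was so for 32.4% of all tested genes. Ucp2, an inner-membrane carrier of the uncoupling protein family, rose by 0.65 ± 0.14 (SE, edgeR adjusted p = 0.0126). Of the fatty acid oxidation genes Eci2 fell by 0.54, and Ppara, a regulator of that pathway, was lower at no more than 2.44 TPM in any library. These calls lay near the threshold. When 1 library was left out, Foxred1 lost its call without Tet2 WT 1 (edgeR adjusted p = 0.0567) and Ucp2 without Tet2 KO 3 (edgeR adjusted p = 0.0568). Slc25a5 lost it without Tet2 KO 3, Tet2 WT 1 or Tet2 WT 3, with adjusted p from edgeR up to 0.0594, and Slc25a4 without Tet2 KO 2, Tet2 KO 3, Tet2 WT 1 or Tet2 WT 3, with adjusted p up to 0.143. Dmac2 was called in 2 of the 6 fits (without Tet2 KO 2 or Tet2 WT 2), Eci2 in 2 (without Tet2 KO 1 or Tet2 WT 2), and Mrpl37 and Ppara in 1 each (without Tet2 KO 2). Scaled to the macrophage markers, the 5 genes that rose lost their calls, and Slc25a5, Ucp2 and Mrpl37 turned to −0.090, −0.027 and −0.17. By limma on log2(TPM + 1), Dmac2, Eci2, Slc25a5 and Mrpl37 were not called, with adjusted p of 0.165, 0.0565, 0.0697 and 0.224. With length-scaled TPM counts edgeR did not call Dmac2, Eci2 or Mrpl37, with adjusted p of 0.147, 0.136 and 0.0587. The macrophage and fibroblast markers differed between genotypes as given above, and their part in these changes was not tested.

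Because the macrophage markers themselves differed, with 17 of 21 higher in Tet2 KO, scaling decides where the whole chain sits. When libraries were scaled to those markers, the median log2 fold change of all tested genes was −0.70 and that of the members was also −0.70. On that scale 72 of 97 members were called lower and 0 higher, against 43.0% of all tested genes called lower. Under both scalings the median of the nuclear members, 0.02 with TMM and −0.68 with the markers, lay close to that of all tested genes. The median of the mitochondrially encoded members lay lower, at −0.36 with TMM and −1.065 with the markers. Without Tet2 KO 1 it was −0.06 with TMM.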

How the data were processed

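The submitters' processing notes name Trim Galore 0.6.4, kallisto 0.44.0 and GRCm38, with no annotation release. Per the file headers, the deposited files give estimated counts and TPM for each transcript, as the authors' kallisto runs wrote them, with no further normalization. Of 118783 transcripts, 116622 matched GENCODE M21 identifiers, and both units were summed to 35865 genes. Unmatched transcripts held at most 0.671% of a library's counts.

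Summed estimated counts were rounded and tested with edgeR 4.0.16 (filterByExpr, TMM, robust quasi-likelihood fit, genotype as the only term) in R 4.3.3, with Benjamini-Hochberg adjustment over 16386 genes. DESeq2 1.42.0 and limma 3.58.1 were alternatives. On simulated data the script recovered the fold changes, but its share of false calls exceeded the threshold when dispersions were drawn per gene, so calls near the threshold are less certain. Sums over members were described without a test. Named genes were the mitochondrially encoded members, called members, isoform pairs, core subunits, the 2 most abundant of each nuclear complex and up to 3 called genes of each pathway list. Members and lists were chosen with earlier results of these data known. Words of 31 bases were used to find shared sequence, with pseudogenes holding at least 10% of a gene's words taken as copies. Sequences came from the GENCODE M21 transcripts and GRCm38.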

Additional observations from a re-analysis of the deposited data

How the results depend on the processing

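Of 1136 log2 fold changes recomputed for 60 named genes (52 members and 8 of the pathway lists), 977 had the same sign and call. Ndufa4l2 was called lower in every alternative fit run. In all, 91 values changed sign, for 31 members, each uncalled and at most 0.43 from 0 as reported, and for 3 called pathway genes. Calls were lost in 41 values, all of pathway genes. The cause was not tested. Scaled to the macrophage markers, 14 of the members whose sign changed were called lower. The log2 values on that scale were Cox4i1 −0.65, Cox4i2 −0.59, Cox6a1 −0.64, Cox6a2 −0.58, Cox6b1 −0.54, Cox7a2l −0.56, Ndufa4 −0.68, Atp5g1 −0.70, Sdha −0.44, Sdhb −0.38, Uqcrfs1 −0.66, Uqcrc1 −0.28, Cyc1 −0.52, Cox5a −0.61, Atp5a1 −0.49, Atp5b −0.58, Ndufa3 −0.51, Ndufb8 −0.37, Uqcrb −0.67, Uqcr11 −0.62, Sdhc −0.44, Sdhd −0.27, Ndufa12 −0.38, Ucp2 −0.027, Slc25a5 −0.090 and Mrpl37 −0.17. By limma on log2(TPM + 1) the values were Cox4i1 −0.13, Cox4i2 −0.055, Cox6a1 −0.13, Cox6a2 −0.11, Cox6b1 −0.028, Cox7a2l −0.027, Ndufa4 −0.17, Atp5g1 −0.17, Uqcrfs1 −0.12, Cox5a −0.074, Atp5b −0.096, Uqcrb −0.16 and Uqcr11 −0.12. With a pseudocount of 0.1 they were Cox4i1 −0.13, Cox4i2 −0.10, Cox6a1 −0.13, Cox6a2 −0.12, Cox6b1 −0.028, Cox7a2l −0.027, Ndufa4 −0.17, Atp5g1 −0.17, Uqcrfs1 −0.12, Cox5a −0.074, Atp5b −0.096, Uqcrb −0.16 and Uqcr11 −0.12. With at least 5 CPM required in 3 libraries they were Cox4i1 −0.027, Cox6a1 −0.0067, Ndufa4 −0.046, Atp5g1 −0.060, Uqcrfs1 −0.022 and Uqcrb −0.046. Length-scaled TPM counts gave Ndufa4 −0.017, Atp5g1 −0.0058, Cycs 0.026 and Uqcrb −0.0032. Atp5g1 was −0.0020 by DESeq2, −0.0020 with RLE scaling and −0.016 by limma voom. Leaving out 1 library in turn gave ranges of mt-Cytb −0.58 to 0.0045, mt-Co1 −0.58 to 0.045, mt-Co3 −0.66 to 0.026, Cox7a1 −0.37 to 0.15, Uqcrfs1 −0.0088 to 0.10, Uqcrb −0.094 to 0.093, Cox4i1 −0.0089 to 0.11, Cox4i2 −0.35 to 0.47, Cox6a1 −0.075 to 0.13, Cox6a2 −0.19 to 0.24, Ndufa4 −0.066 to 0.093, Atp5g1 −0.15 to 0.13, Ndufs1 −0.16 to 0.067, Uqcr11 −0.069 to 0.18, Atp5g3 −0.095 to 0.038, Cycs −0.14 to 0.078 and Atp5mpl −0.11 to 0.0065.

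Members called higher numbered 1 with upper-quartile scaling and DESeq2 against 0 as reported, and 0 to 2 when 1 library was left out (2 without Tet2 KO 2). Members called lower numbered 72 with macrophage marker scaling, 2 with the stricter filter and DESeq2 and 3 with both limma fits on TPM against 1, and 1 to 3 when 1 library was left out (3 without Tet2 KO 2). Genes changed numbered 7073 with macrophage marker scaling against 2653, and 1382 to 3141 when 1 library was left out, with 1382 without Tet2 WT 1 and 1750 without Tet2 KO 3. Of all calls 62.3% were lower as reported, 83.4% and 82.8% by limma on TPM and 99.7% with macrophage marker scaling. Summed log2 TPM differences relative to the macrophage markers were −1.18 for the mitochondrial sum, −0.69 for the nuclear sum, −0.69 for the nuclear complex I sum, −0.40 for the nuclear complex II sum, −0.64 for the nuclear complex III sum, −0.75 for the nuclear complex IV sum, −0.69 for the nuclear complex V sum, −1.07 for the mitochondrial complex III sum, −1.16 for the mitochondrial complex V sum. Rescaled within nuclear protein-coding genes they were −0.23 for the nuclear sum, −0.23 for the nuclear complex I sum, −0.23 for the nuclear complex V sum. As a share of counts the difference was −0.078 for the nuclear complex V sum. With the replicate number as a block, 2347 genes and Ndufa4l2 alone of the members were called, Atp5g1 was −0.016, and Mrpl37 lost its call (edgeR adjusted p = 0.0711). The numbers share no stated animal or day, and same-number deviations correlated by 0.060, 0.13 and 0.042, each higher than with the other numbers. As limits, Cox4i2, at no more than 1.82 TPM, had an SE of 0.59, and no mitochondrially encoded gene had an interval within 1.5-fold.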
